A study of Drosophila melanogaster with 4 samples.

Results

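The regions described here are the places on chromosome 4 and on the heterochromatic sequences of the Drosophila melanogaster genome at which ChIP with an antibody against BEAF was called as enriched or depleted. They were chosen by sequence name alone, as every entry of the combined replicate list that lies on 4, XHet, 2LHet, 2RHet, 3LHet, 3RHet, YHet or U. This rule took 202 of the 5026 regions of the combined list, 198 of them typed as enriched and 4 as depleted. The same 8 sequences held 153 of 4170 regions in the list of ChIP replicate 1 and 160 of 4350 in that of ChIP replicate 2. Together they measure 20.7 Mb in FlyBase release 5, the build of all coordinates here. Chromosome 4 carried 64 of the enriched regions, the 6 Het sequences 90 and U 44. The comparison set was the 5 large arms (X, 2L, 2R, 3L and 3R), with 4805 enriched regions on 119 Mb.

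BEAF, the boundary element-associated factor, is a zinc finger protein that binds DNA at chromatin domain boundaries in flies, often close to the start sites of active genes. Chromosome 4, the dot chromosome, is small and has features of heterochromatin (HP1 and H3K9 methylation) along much of its length, yet its genes are transcribed. The Het sequences are assembled stretches of the repeat-rich heterochromatin around the centromeres and of the Y chromosome, and U collects scaffolds that were not placed on any chromosome, so that distances along U may cross scaffold joins. In such sequence short reads often match several places, and the treatment of such reads by the authors is not recorded in the sources used here.

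The embryos were wild-type Oregon-R animals of 14 to 16 h, fixed in 1.8% formaldehyde, and the rabbit polyclonal antibody BEAF-HB was raised against residues 88 to 282 of the protein. There were 2 ChIP samples and 2 input samples, of which only the ChIP samples have region lists, so no region could be read against a list made from input alone. The free-text descriptions of the first ChIP and the first input sample go against their titles, and the titles were followed. The labels do not tell whether the ChIP replicates are separate collections of embryos, so the spread between them may be technical. The lists hold no read counts, so the depth behind a region is unknown. The score of a region is the authors' own value, on a scale that is not stated, and serves here only to describe and rank regions within a list. A combined region was counted as found in a replicate where it shared at least 1 bp with an enriched region of that replicate's list.

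Chromosome 4 was as rich in BEAF regions as the large arms to within the counting error, while the heterochromatic sequences were poorer, apart from XHet. Chromosome 4 carried 47.3 enriched regions per Mb in the combined list (95% Poisson interval 36.5 to 60.5). The replicate lists gave 37.7 and 40.7 per Mb, a mean of 39.2 ± 2.09 (SD, n = 2). The large arms carried 40.4 per Mb in the combined list and 33.7 and 35.2 per Mb in the replicate lists. The density on chromosome 4 was thus 1.17 times that of the arms (95% interval 0.902 to 1.50), a difference that did not pass an exact binomial test (two-sided, adjusted p = 0.196 by Benjamini-Hochberg over the 9 sequences outside the arms). These tests treat regions as independent draws, which neighbouring regions are not, and their intervals cover the counting of regions only.

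The 6 Het sequences together carried 9.70 regions per Mb, 0.240 times the density of the arms (95% interval 0.193 to 0.296, unadjusted exact binomial p = 4.2e-66). The replicate lists gave 7.76 and 7.86 per Mb for them. U carried 4.38 regions per Mb, 0.108 times that of the arms (95% interval 0.0787 to 0.146, exact binomial test, adjusted p = 6.4e-110), with 2.89 and 3.08 per Mb in the replicate lists. Both differences from the arms were far larger than the spread between the replicates. The longest sequence named in the headers outside the arms, Uextra, was empty in all 3 lists, and the sources used here do not say if the search included it.

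The Het sequences differed widely among themselves. XHet held 15 regions on 204112 bp, or 73.5 per Mb (95% Poisson interval 41.1 to 121), and 68.6 per Mb in each replicate list. YHet held 5 regions and 14.4 per Mb (4.68 to 33.6), a value that was the same in all 3 lists. 2LHet followed with 4 regions and 10.8 per Mb (2.95 to 27.8), 3LHet with 27 and 10.6 per Mb (6.96 to 15.4), and 2RHet with 29 and 8.82 per Mb (5.91 to 12.7). 3RHet was the sparsest, with 10 regions and 3.97 per Mb (1.90 to 7.30). XHet was 18.5 times as dense as 3RHet (95% interval 7.78 to 46.1, exact binomial test, adjusted p = 6.1e-11). It was also denser than each of the other Het sequences, with adjusted p of at most 0.0015 in the same set of exact tests. These tests counted each region of an evenly spaced run of 7 on XHet. They were not repeated with the run counted as a single region, which leaves 9 regions on XHet.

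Against the large arms, XHet was 1.82 times as dense (95% interval 1.02 to 3.01, exact binomial test, adjusted p = 0.037). XHet holds a run of 7 evenly spaced regions, described further on, and with the run counted as a single region the ratio was 1.09 (exact binomial test, adjusted p = 0.73). YHet lay at 0.357 times the arms (exact binomial test, adjusted p = 0.013), but this call was lost in the replicate 1 list (0.427, adjusted p = 0.061). 2LHet lay at 0.269 (adjusted p = 0.0025), 3LHet at 0.262 (2.9e-18), 2RHet at 0.218 (1.5e-26) and 3RHet at 0.0984 (4.0e-30), all by the same exact binomial test. The 2LHet call was lost among regions in the upper 50% of scores (0.269, exact adjusted p = 0.053) and with its length counted from the first to the last region (0.543, adjusted p = 0.27). Over that length XHet moved to 3.92 times the arms, 3RHet to 0.169 and YHet to 4.34. Such a length leaves out the empty ends of a sequence, so it raises the density by construction, most where those ends are long. In the upper 50% of scores 3LHet moved to 0.116, 2RHet to 0.136, 3RHet to 0.0394 and YHet to 0.714, and 2RHet lay at 0.135 with only regions found in both replicates.

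Neighbours in the order of density were mostly not separable. All 78 pairs of sequences were compared by exact binomial tests, added after the densities were known and adjusted together. These pair tests used the combined list only and were not repeated in the replicate lists. XHet was 1.55 times as dense as chromosome 4 (95% interval 0.821 to 2.75, exact adjusted p = 0.156). Chromosome 4 was 3.29 times as dense as YHet (1.34 to 10.5, exact adjusted p = 0.0071). YHet and 2LHet (ratio 1.33, exact adjusted p = 0.78), 2LHet and 3LHet (1.03, adjusted p = 1) and 3LHet and 2RHet (1.20, adjusted p = 0.55) did not separate. 2RHet was 2.01 times as dense as U (1.22 to 3.29, exact adjusted p = 0.0071), and U and 3RHet did not separate (1.10, adjusted p = 0.89). Among the large arms, chromosome 4 was denser than 2L (1.40, interval 1.07 to 1.81, exact adjusted p = 0.020), and its ratios to 3L (1.31, adjusted p = 0.055), 3R (1.20, adjusted p = 0.19) and 2R (1.04, adjusted p = 0.78) did not pass, nor did that of X to chromosome 4 (1.02, adjusted p = 0.96).

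**Figure D1:**
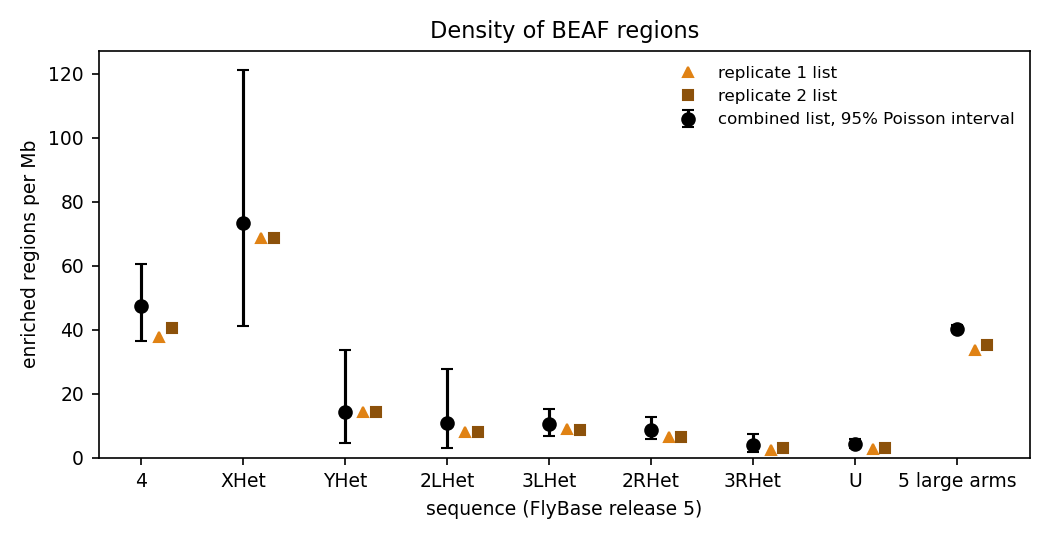
Enriched BEAF regions per Mb (vertical axis) on each sequence (horizontal axis), with black points for the combined list and their exact 95% Poisson intervals, and coloured points for the replicate lists. Chromosome 4 (47.3) lies by the large arms (40.4), XHet (73.5) lies above both with a wide interval, and the other heterochromatic sequences lie between 3.97 and 14.4.

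The share of sequence covered followed the same order. Enriched regions covered 14.0% of chromosome 4 in the combined list, 17.1% of XHet, 3.58% of YHet, 2.91% of 2LHet, 2.22% of 3LHet, 1.81% of 2RHet, 0.753% of 3RHet and 0.908% of U. The arms were covered to 10.4%.

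Along chromosome 4 the regions were spread from near its start to its end. The last one, 1348086 to 1349086, was found in neither replicate, and the region before it ended 57999 bp before the end of the sequence. In 3 windows of equal size from its first base to its last, the chromosome held 15, 22 and 27 of the 64 midpoints. In 10 such windows it held between 4 and 10 each. The longest stretch without a region ran from 232107 to 325877 (93.8 kb) and held no region of either replicate list, followed by 512737 to 574353 (61.6 kb) and the first 60.7 kb of the chromosome. The closest neighbours were separated by 165 bp, from 505205 to 505369. The median distance between neighbouring midpoints was 13534 bp, and 23 of the 63 distances (36.5%) were under 10 kb. On the large arms the median was 10320 bp and 48.9% of distances were under 10 kb. Relative to the mean distance, the median was 66.4% on chromosome 4 and 41.7% on the arms, so regions were spread more evenly along chromosome 4, by this description and without a test. The sequences differ in length, and the longest distance, which raises the mean, was 96922 bp on chromosome 4 and 480415 bp on the arms. The same ratio was 88.8% on XHet and 111% on YHet.

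The highest score on chromosome 4 belonged to the region from 950050 to 953126 (4.02 in the combined list, 4.12 and 4.01 in replicates 1 and 2), which ranked first on the chromosome in all 3 lists. It was followed by 60680 to 66928, the first region of the chromosome (3.49, with 3.38 and 3.66), and 1046218 to 1054820 (3.47, with 3.41 and 3.61). The next were 1104290 to 1108002 (3.36, with 3.34 and 3.46) and 86904 to 91484 (3.31, with 3.22 and 3.50). Of the 10 highest regions of the combined list, 8 were among the 10 highest of replicate 1 and 9 among those of replicate 2. The top of the chromosome was therefore nearly the same in each list. The median score on chromosome 4 was 1.02 (quartiles 0.386 and 2.35), against 0.881 (0.323 and 2.67) on the large arms, and its highest score lay below the 5.10 reached there.

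Regions on chromosome 4 were wide. In the combined list the median was 2575 bp, and replicates 1 and 2 gave 3044 and 2850 bp, a replicate mean of 2947 ± 137 bp (SD, n = 2). On the large arms the median was 2347 bp, with 2391 and 2416 bp in the replicates, a mean of 2404 ± 17.7 bp. The upper quartile was 3703 bp on chromosome 4 and 2895 bp on the arms. Among regions found in both replicates the medians were 3271 and 2553 bp. The shift was thus seen in each list and was larger than the difference between the replicates.

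Of the 198 enriched regions, 6 were over 5000 bp wide (3.03%, against 4.1% of all enriched regions of the combined list), and 5 of the 6 lay on chromosome 4. These 5 were 7.81% of the regions of chromosome 4, against 4.14% on the large arms together and 6.85% on X alone. In replicate 1 the share was 5.88% on chromosome 4 and 5.72% on X, and in replicate 2 it was 9.09% and 6.81%. The widest was 1046218 to 1054820, at 8603 bp (8553 and 8542 bp in the replicates). The others were 60680 to 66928 (6249 bp), 713896 to 719900 (6005 bp), 679548 to 685338 (5791 bp) and 73062 to 78310 (5249 bp). All but the last scored above 3, and 73062 to 78310 scored 0.732. The Het sequences held no region over 5000 bp, and the single one on U, 5288956 to 5294964, was 6009 bp wide with a score of 0.546.

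**Figure D2:**
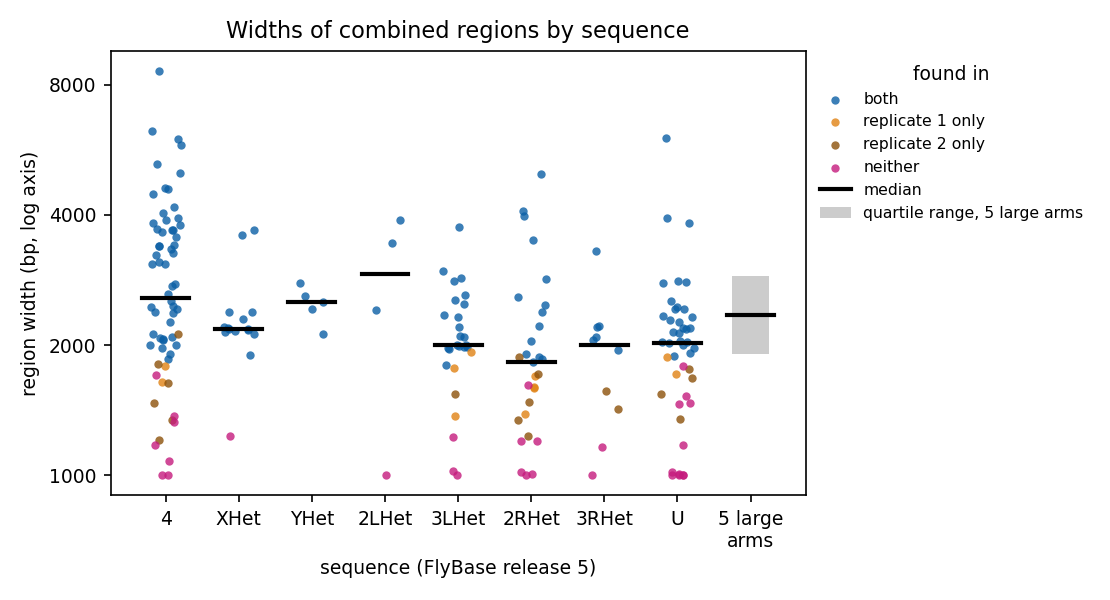
Width of each combined enriched region in bp (vertical axis, logarithmic) by sequence, each point a region coloured by the replicate lists in which it was found, with a bar at the median and the quartile range of the large arms in grey. Chromosome 4 has a median of 2575 bp and 5 of the 6 regions over 5000 bp, and the narrowest regions, from 1001 bp, are mostly those found in neither replicate.

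The regions of the Het sequences were narrower than those of chromosome 4, with a median of 2086 bp (2071 and 2108 bp in the replicates). The medians were 2925 bp on 2LHet, 2511 bp on YHet, 2183 bp on XHet, 2004 bp on 3RHet, 1999 bp on 3LHet and 1831 bp on 2RHet, and that of U was 2024 bp. Scores were also lower on most of them. The median score was 0.602 over the 6 Het sequences, from 0.447 on 3RHet, 0.484 on 2RHet, 0.518 on 3LHet and 0.759 on 2LHet to 1.05 on XHet and 2.84 on YHet, and it was 1.20 on U. Of the 31 regions that lay in the highest quartile of scores of the whole combined list (above 2.64), 14 were on chromosome 4, 10 on U, 3 on YHet and 2 each on XHet and 2RHet. 2LHet, 3LHet and 3RHet had none. These counts were 21.9% of the regions of chromosome 4 and 22.7% of those of U, against 25.4% on the large arms. The shares were 60.0% on YHet (3 of 5), 13.3% on XHet and 6.90% on 2RHet. Only the share of YHet lay above that of the arms.

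**Figure D3:**
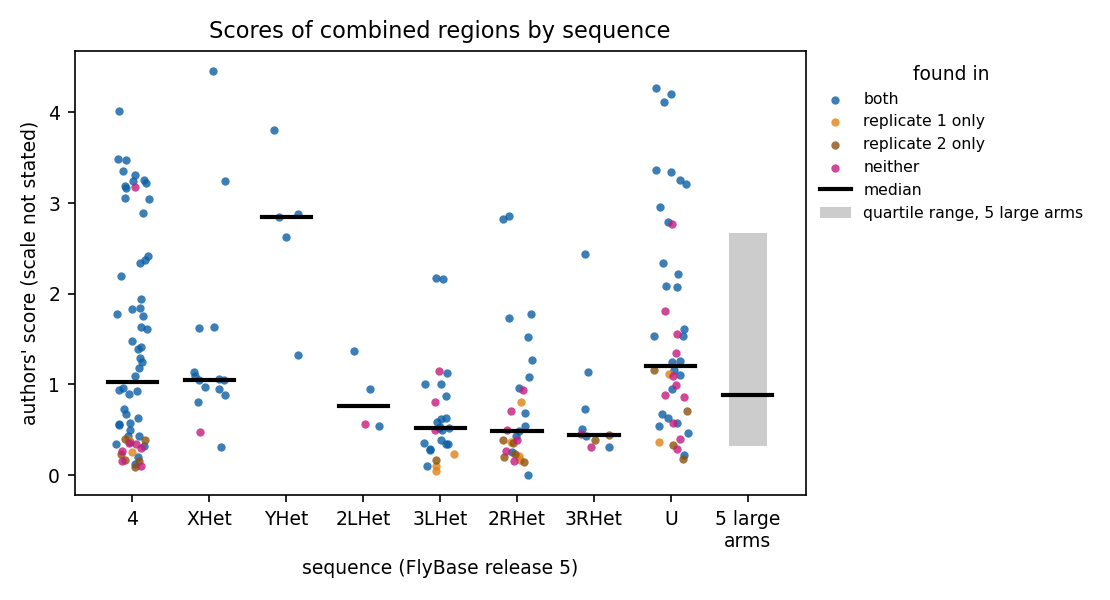
Authors' score of each combined enriched region (vertical axis, no unit stated) by sequence, coloured by the replicate lists in which it was found, with a bar at the median and the quartile range of the large arms in grey. The median is 1.02 on chromosome 4, 2.84 on YHet and between 0.447 and 0.759 on 2LHet, 2RHet, 3LHet and 3RHet, and several regions of U above a score of 1 were found in neither replicate.

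On XHet all but 1 of the 15 regions were found in both replicates. The exception was the first, 32234 to 33464, with a score of 0.473 and a width of 1231 bp. The last 77.2 kb of the sequence (37.8%) held no region. The highest score was that of 82520 to 86120 (4.46, with 4.31 and 4.64 in the replicates), the 51st of the whole combined list, followed by 74108 to 77804 (3.24, with 3.26 and 3.39). Between and before them lay 78780 to 81082 (1.64), 60208 to 62594 (1.62), 56204 to 58594 (1.05), 71482 to 73672 (0.811) and 69004 to 70896 (0.307). The closest neighbours were 435 bp apart, from 73673 to 74107. High-scoring and low-scoring regions thus lay side by side.

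Past the highest region, XHet carried a regular series. The 7 regions from 89438 to 126916 started at 89438, 95302, 101208, 107032, 112954, 118862 and 124734. Their start-to-start distances were 5864, 5906, 5824, 5922, 5908 and 5872 bp, a mean of 5883 bp with an SD of 36.4 bp (coefficient of variation 0.619%). Their widths ran from 2119 to 2203 bp and their scores from 0.880 to 1.14. In the replicate lists the same series had coefficients of variation of 0.615% and 0.869%. Of the 4928 runs of 7 neighbouring regions in the combined list it was the most evenly spaced and the most uniform in width, as it was of the 4095 runs in replicate 1 and the 4275 in replicate 2. The most even run that shared no region with it lay on 3R, from 23063570 to 23115758, with a coefficient of variation of 16.2%. The series was picked out after its values were seen and is given as a description.

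YHet carried its 5 regions close together near its end, and the first 301 kb (86.8%) held none. They were 301184 to 303302 (score 1.32), 303742 to 306520 (3.81), 312610 to 315204 (2.84), 319910 to 322332 (2.62) and 327144 to 329654 (2.87). All 5 were found in both replicates, with midpoints that differed by at most 21.5 bp between the replicates. Their widths ran from 2119 to 2779 bp. The last 3 started 7300 and 7234 bp apart in the combined list, 7285 and 7247 bp in replicate 1, and 7296 and 7248 bp in replicate 2. The closest neighbours were the first 2, with 439 bp between them. YHet was the Het sequence with few but high-scoring regions.

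**Figure D4:**
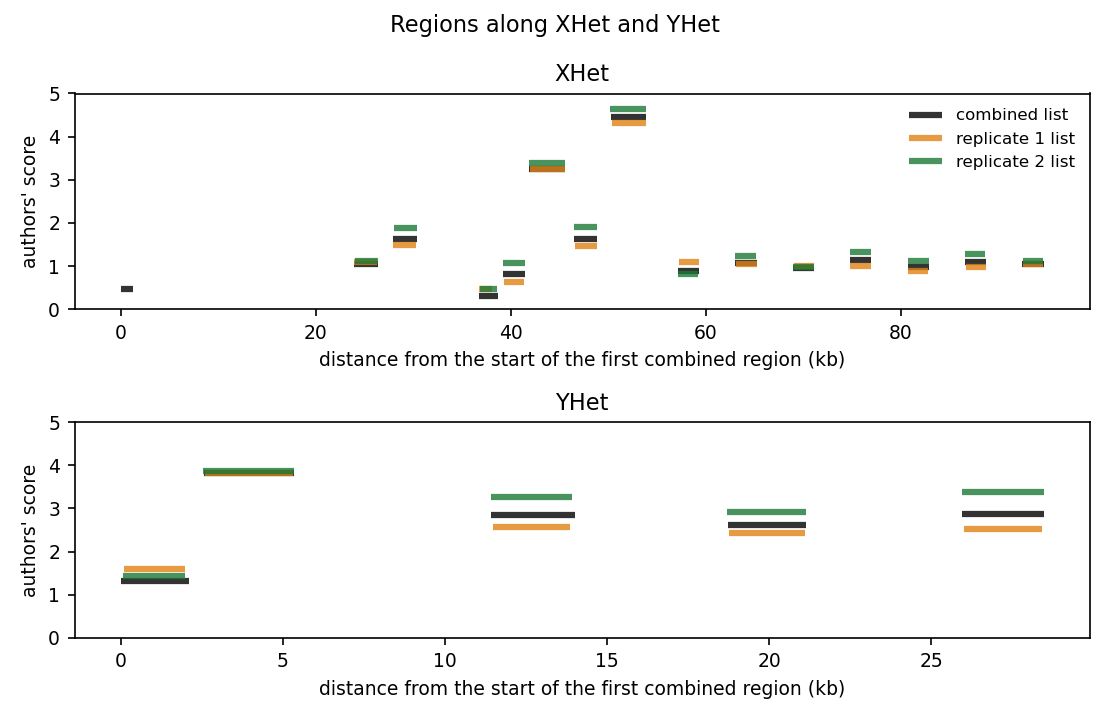
Combined and replicate regions along XHet and YHet, each drawn as a bar from its start to its end (horizontal axis, kb from the start of the first combined region) at the height of its authors' score (vertical axis). On XHet the 7 regions at the right are spaced by 5824 to 5922 bp at scores of 0.880 to 1.14, and on YHet the last 3 are spaced by 7300 and 7234 bp, with the replicate lists at the same places.

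2LHet carried 4 regions. They were 31600 to 35486, the widest at 3887 bp (0.544), 168202 to 171636 (0.952), 197874 to 200288 (1.37) and 212836 to 213838 (0.566). The last was 1003 bp wide and was found in neither replicate, and the others were found in both. The closest pair was 12.5 kb apart, and the last 155 kb held no region.

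3LHet regions came in groups separated by long stretches without an enriched region. The longest, from 716621 to 1378545 (662 kb, 25.9% of the sequence), held no enriched region of the combined list or of replicate 1 and a single one of replicate 2. A region typed as depleted, given at the end, lay inside it. The closest neighbours had 127 bp between them, from 593219 to 593345. The highest scores were those of 2 neighbours, 701708 to 704516 (2.17) and 708794 to 711658 (2.16), which held the first 2 ranks of the sequence in both replicate lists. They were followed by 1748312 to 1749312 (1.15), which was found in neither replicate, 457298 to 459914 (1.13) and 593346 to 595692 (1.01). The widest was 1394548 to 1398306, at 3759 bp. A further series of 4 regions started at 2046268, 2055412, 2065984 and 2075104, with distances of 9144, 10572 and 9120 bp and widths of 1797 to 1999 bp, all 4 found in both replicates. It was noticed after the values were seen.

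2RHet had regions near both of its ends and between them, with the longest stretch without an enriched region from 2287493 to 2824225 (537 kb, 16.3% of the sequence). Of its 29 regions 13 lay in the last of 3 windows of equal size. The highest scores were those of 3177354 to 3181438 (2.86, with 2.88 and 2.99 in the replicates) and 389426 to 392004 (2.82, with 2.76 and 2.96). The next were 685280 to 687752 (1.78), 3196536 to 3200504 (1.74) and 2898408 to 2903368 (1.52), the last also the widest at 4961 bp. All 5 were found in both replicates and were the 5 highest of the sequence there too. The closest neighbours had 81 bp between them, from 197563 to 197643.

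3RHet was nearly empty along most of its length, with 9 of its 10 regions in the last of 3 windows of equal size. The longest stretch without a region, from 641825 to 1704995, measured 1063 kb and 42.2% of the sequence. The highest score belonged to 1823038 to 1826332 (2.44, with 2.32 and 2.67), also the widest at 3295 bp. The next were 1934100 to 1936312 (1.13), 2099346 to 2101430 (0.731), 1835320 to 1837376 (0.511) and 1882730 to 1883730 (0.452), the last found in neither replicate. The closest pair was 7289 bp apart, from 1926811 to 1934099.

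The 44 regions of U had scores that reached those of chromosome 4. The highest were 5540224 to 5543004 (4.27, with 4.20 and 4.43 in the replicates), 9710034 to 9712850 (4.21, with 3.61 and 4.93) and 9094000 to 9096524 (4.12, with 3.90 and 4.49). They were followed by 7530608 to 7532944 (3.37, with 4.44 and 3.28) and 9340484 to 9342938 (3.34, with 3.56 and 3.15). The order of the first 5 differed between the replicates. In 3 windows of equal size U held 5, 15 and 24 regions, and 34 of the 44 (77.3%) lay past its midpoint. Their median score was 1.55, against 0.433 for those before it. The longest stretch without a region ran from 1244019 to 3438153 (2194 kb), and the closest neighbours had 525 bp between them, from 5539699 to 5540223.

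**Figure D5:**
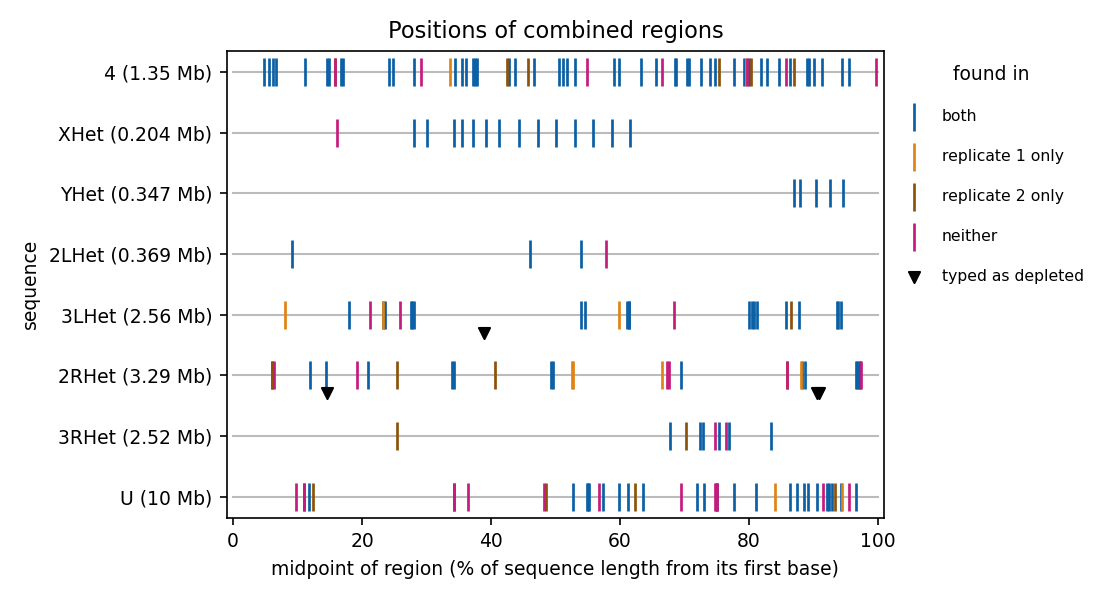
Midpoint of each combined region along its sequence (horizontal axis, % of the sequence length) for the 8 sequences, each tick an enriched region coloured by the replicate lists in which it was found and each triangle a region typed as depleted. Chromosome 4 has regions in each of 10 windows of equal size, the first 86.8% of YHet is empty, and 9 of the 10 regions of 3RHet lie in the last of 3 windows of equal size.

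Of the 198 enriched regions 138 (69.7%) were found in both replicates, against 77.8% of all enriched regions of the combined list. On chromosome 4 the share was 76.6% (49 of 64), close to the 78.1% of the large arms (Fisher's exact test, adjusted p = 0.87). It was 100% on YHet (5 of 5), 93.3% on XHet (14 of 15), 75.0% on 2LHet (3 of 4), 74.1% on 3LHet (20 of 27) and 60.0% on 3RHet (6 of 10). None of these passed the test against the arms. The tests and intervals on shares, here and below, also treat regions as independent draws, which neighbouring regions are not. They cover the counting of regions only, not the spread over further replicates. On 2RHet the share was 48.3% (14 of 29, Clopper-Pearson 95% interval 29.4 to 67.5%), below that of the arms (Fisher's exact test, two-sided, adjusted p = 0.0034). On U it was 61.4% (27 of 44, interval 45.5 to 75.6%, Fisher's exact test, adjusted p = 0.063). Over the 6 Het sequences it was 68.9% (62 of 90, unadjusted Fisher's exact p = 0.040). That call was lost with a reciprocal overlap of 50% (p = 0.075), for replicate 2 regions found in replicate 1 (p = 0.32) and without the narrow regions described further on (p = 0.54), by the same exact test.

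The replicate lists gave 2RHet a low value as well. Of its 21 regions in replicate 1, 15 (71.4%) overlapped a region of replicate 2, against 95.1% on the arms (Fisher's exact test, adjusted p = 0.0035). In the other direction 15 of 21 (71.4%) did so, against 90.1% on the arms, and that difference did not pass (Fisher's exact test, adjusted p = 0.11). The call on the combined list was also lost among regions in the upper 50% of scores (88.9%, 8 of 9, Fisher's exact adjusted p = 0.069) and without the narrow regions described next (60.9%, adjusted p = 0.077).

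Where a region was found in both replicates, its place mostly agreed closely. Among regions that matched one to one, the midpoints in the replicate lists differed by a median of 43 bp on chromosome 4 (49 pairs), 42 bp on the Het sequences (63 pairs), 45 bp on U (27 pairs) and 34 bp on the arms (3673 pairs). The largest differences were 699, 725.5, 174.5 and 1875.5 bp in the same order. The replicate 2 region was the wider of the pair in 67.3%, 76.2%, 74.1% and 75.9% of cases. 2LHet stood apart, with a median midpoint difference of 189.5 bp over 3 pairs.

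A further 31 of the 198 regions (15.7%) were found in neither replicate, against 10.1% of all enriched regions. Of these 31, 23 were narrower than 1302 bp, the narrowest region of either replicate list. Such narrow regions numbered 25 of the 198 (12.6%, against 6.28% of all). The narrowest width in the combined list, 1001 bp, was that of 9 of the 198 (4.55%, Clopper-Pearson 95% interval 2.10 to 8.45%) and of 8 of the 4805 regions on the arms (0.166%, interval 0.0719 to 0.328%). Of these 9, 4 lay on U, 2 on chromosome 4 and 1 each on 2RHet, 3LHet and 3RHet.

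Some of the regions without a counterpart scored high. Among the 100 regions above the median score of the combined list (0.882), 9 were found in neither replicate, 8 of them narrower than 1302 bp. On the arms the same held for 6 of 2401 regions (0.250%, interval 0.0918 to 0.543%), which scored at most 1.53. U held 6 of the 9, out of its 29 regions above the median (20.7%, interval 7.99 to 39.7%). In that upper 50% the share of U regions found in both replicates was 72.4%, against 99.8% on the arms (Fisher's exact test, adjusted p = 3.3e-12). Between the replicate lists themselves no difference passed the test: 93.1% of its replicate 1 regions were found in replicate 2 (arms 95.1%) and 87.1% in the other direction (arms 90.1%, Fisher's exact test, adjusted p = 1 for both). Without the narrow regions, the share of all U regions found in both replicates was 73.0%, against 83.1% on the arms (adjusted p = 0.39 by the same exact test). The highest regions without a counterpart were 1348086 to 1349086 on chromosome 4 (3.18), which ended 2771 bp before the end of the sequence, and 7508850 to 7509850 on U (2.76). They were followed on U by 9594460 to 9595476 (1.80) and 6987368 to 6988368 (1.56).

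Regions typed as depleted made up 4 of the 202 (1.98%), against 0.458% of the whole combined list, and none lay on chromosome 4 or U. All 4 had scores just below 0, and each met an enriched region of at least 1 replicate list at its place. The same comparison is not given here for the 19 depleted regions of the large arms. Each replicate list held 1 depleted region in all, and it lay on a Het sequence in both. On 2RHet, 479252 to 480956 (-0.021) overlapped an enriched region of replicate 1 (0.193) and none of replicate 2. On the same sequence 2979932 to 2981700 (-0.015) overlapped enriched regions in both (0.0860 and 0.0961). The region from 2987438 to 2989168 (-0.065) overlapped an enriched one in replicate 1 (0.0454) and a depleted one in replicate 2 (-0.0073). On 3LHet, 993166 to 994974 (-0.016) overlapped a depleted region in replicate 1 (-0.021) and an enriched one in replicate 2 (0.195). The type at each of these 4 places thus differed between lists, and the cause was not tested. The lowest enriched region of 2RHet, 2915714 to 2917574 (0.0011), also scored close to 0 and was found as enriched in both replicates.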

How the data were processed

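ChIP-seq with the BEAF-HB antibody gave 3 deposited region lists, 1 per ChIP replicate and 1 for the combined set. Samples were grouped by title. Coordinates are those of FlyBase release 5, per the file headers, which also state sequence lengths. The submitters' processing notes name Bowtie 0.12.7. What caller and thresholds were used, how replicates were combined and how the score was computed is not given in the sources used here. That score, the authors' value per region, is above 0 for enriched and below 0 for depleted regions. Depth is unknown.

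Starts and ends, as deposited by the authors, were read as 1-based inclusive. Densities carry exact 95% Poisson intervals and shares Clopper-Pearson intervals. Densities were compared with the 5 large arms by two-sided exact binomial tests and shares by Fisher's exact test, with Benjamini-Hochberg adjustment over sequences and a threshold of 0.05. Width, spacing and score were described only. Members, naming rule and comparisons were chosen with earlier results of these data known. The rule named all regions on XHet and YHet, and elsewhere the 5 highest scores, the widest region, the closest neighbours and the longest gap, with the depleted regions and the highest found in neither replicate. The pairwise tests, evenly spaced runs and narrow regions were added after seeing the data. Scripts were tested on simulated data. Calculations used scipy 1.17.1, matplotlib 3.10.9, pandas 2.3.3 and numpy 2.4.6 under Python 3.11.15. No annotation of release 5 was used here, so regions carry no gene names or sequences.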

Additional observations from a re-analysis of the deposited data

How the results depend on the processing

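Of 218 alternative values, 134 kept their direction and call or moved by less than the replicate SD. The densities of chromosome 4, of the 6 Het sequences together and of U kept their direction and call under every alternative run. YHet did not: by the exact binomial test its ratio to the arms was 0.457 (adjusted p = 0.10) with regions found in both replicates only, 0.714 (0.57) in the upper 50% of scores, and reversed to 4.34 (0.0087) when length was counted from its first to its last region, by construction, since the empty start was then left out. 2LHet lost its call in the upper 50% (0.269, exact adjusted p = 0.053) and over that length (0.543, 0.27). By Fisher's exact test the share of the 6 Het sequences found in both replicates missed the threshold with a reciprocal overlap of 50% (68.9%, p = 0.075), for replicate 2 regions found in replicate 1 (86.3%, p = 0.32) and without narrow regions (80.5%, p = 0.54), and that of U passed in the upper 50% (72.4%, adjusted p = 3.3e-12). Shares that turned to above the arms, none with a call, were those of chromosome 4 (96.1%), 2LHet and 3RHet (100% each) for replicate 1 regions found in replicate 2, 2LHet (100%) and 3LHet (90.9%) for the other direction, 2LHet (100%) and 3RHet (100%) in the upper 50%, and 2LHet (100%) and 3LHet (83.3%) without narrow regions. The cause was not tested.

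For chromosome 4, U and the 6 Het sequences in turn, regions found in both replicates had median widths of 3271, 2259 and 2213 bp, distances of 16681, 153020 and 9180 bp, and scores of 1.48, 1.61 and 0.958. The upper 50% of scores had widths of 3403, 2187 and 2473 bp, and a distance of 25788 bp on chromosome 4. With 1 replicate list at a time, widths were 2850 to 3044 bp, 2130 to 2173 bp and 2071 to 2108 bp, distances 13612 to 16573 bp, 125272 to 153039 bp and 9163 to 12699 bp, and scores 1.47 to 1.48, 1.53 to 1.57 and 0.779 to 0.884. The distances of the 6 Het sequences pool unlike sequences. In the combined list the median distance was 5894.5 bp on XHet and 7246 bp on YHet. It was 25867.5 bp on 3LHet, 29162 bp on 2LHet, 40194 bp on 2RHet and 46882 bp on 3RHet, all above the 13534 bp of chromosome 4. For 3LHet this order was not kept throughout. The medians of 3LHet and chromosome 4 were 14916 and 16573 bp in replicate 1, and 16975 and 13612 bp in replicate 2. Among regions found in both replicates they were 12814 and 16681 bp. On 2LHet the median rose to 82807.5 and 83155 bp in the replicate lists. Without read counts, depth limits all of these by an unknown amount. No paired analysis was possible because only the ChIP samples have a region list, so no 2 groups share replicate numbers in the lists.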
